A study of Mus musculus with 25 samples.

Results

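Adcy1 to Adcy10, the adenylyl cyclase genes, were followed in perigonadal white adipose tissue of 25 male C57BL6/J mice. The mice lacked either the β isoform of the transcription factor ChREBP (carbohydrate-responsive element-binding protein, encoded by Mlxipl) or all ChREBP, or were WT mice of these lines. The paper's methods describe WT littermates for the ChREBPβ line. The members were all probes whose gene name in the scanner files is one of these 10 symbols, which gave 18 probes for 10 of the 36994 gene names on the array. Adcy10 was chosen by its measured values, the large fall of its level in ChREBP total KO fat, so its values in that line, and every difference that uses those arrays, are given as a description without a test. RNA was measured on single-colour Agilent arrays, 1 array per mouse. The 4 groups were ChREBPβ WT (7 arrays), ChREBPβ KO (6), ChREBP total WT (7) and ChREBP total KO (5). ChREBPβ KO mice carried a CRISPR/Cas9 deletion of the exon used by the β isoform, whereas ChREBP total KO mice carried a null Mlxipl allele. For ChREBPβ the paper derived 2 transgenic lines in the strain and does not say which gave the array mice. Each KO was compared with the WT mice of its own line. All mice, WT included, were fasted for 24 h and then refed for 18 h with food and 20% glucose in the water. The age of the mice is not given in the sources used here.

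Adenylyl cyclases make cyclic AMP (cAMP) from ATP. The products of Adcy1 to Adcy9 sit in the plasma membrane and are switched on by the stimulatory G protein downstream of receptors such as the β-adrenergic receptors. The product of Adcy10, the soluble cyclase, does not answer to G proteins; it is activated by bicarbonate and calcium, and is best known from germ cells of the testis. In fat cells, cAMP activates protein kinase A and through it lipolysis, and insulin opposes this by inducing cAMP breakdown.

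The results turn on Adcy10, which the array reads with 4 probes, each a 60-base oligonucleotide on the plus strand of chromosome 1. Their sequences are shown because they define which parts of the Adcy10 locus were measured. Positions are those of the array annotation, build mm9.
A_51_P256747: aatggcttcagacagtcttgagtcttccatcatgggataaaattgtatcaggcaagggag
A_55_P2715623: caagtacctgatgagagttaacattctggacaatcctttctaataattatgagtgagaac
A_55_P2715618: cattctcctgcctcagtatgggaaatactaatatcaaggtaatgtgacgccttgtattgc
A_55_P2058995: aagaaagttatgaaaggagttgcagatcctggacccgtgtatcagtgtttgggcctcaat
A_51_P256747 spans 167505771 to 167506673 and skips 843 of those bases, so it reads spliced RNA across an intron. A_55_P2715623 (167505853 to 167505912) and A_55_P2715618 (167506476 to 167506535) both lie within the skipped stretch. A_55_P2058995 (167452031 to 167452090) lies 53681 bases upstream. None of the 18 member probes shared a run of 20 bases with a probe of another gene.

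Levels are log2 of the spot intensity after quantile normalisation, and differences are differences of these log2 levels, so a difference of 1 is a doubling. Median spot intensity was 84 to 127 per array over a local background of 15 to 22, and no spot was saturated. Of the 18 member probes, 14 passed the filter on dim spots, and they covered 9 of the 10 genes. Both Adcy2 probes, 1 Adcy1 probe and 1 Adcy8 probe did not pass. Of the 3 tested Mlxipl probes, in ChREBP total KO A_55_P2119957 was lower (difference -1.75, SE 0.15, limma adjusted p 3.17e-08) and A_55_P2728555 was lower (difference -0.66, SE 0.12, adjusted p 0.00109), while A_55_P2045158 differed by 0.08 (SE 0.08, adjusted p 0.687); whether each lies in the deleted sequence is not given in the sources used here. In the ChREBPβ line these probes differed, in the same order, by -0.73 (SE 0.14), -0.47 (SE 0.12) and -0.05 (SE 0.08). Their limma adjusted p were 0.140, 0.247 and 0.896. ChREBP total WT minus ChREBPβ WT was 0.89 (SE 0.13), 0.50 (SE 0.11) and -0.07 (SE 0.07), with limma adjusted p of 0.000105, 0.00309 and 0.541. The part of the Mlxipl level in the differences below was not tested. The tissue carried its fat markers: the mean level of 8 adipocyte genes was 15.99 to 16.60 on every array. It was higher on every ChREBP total KO array (16.48 to 16.53) than on any ChREBP total WT array (15.99 to 16.35). In the ChREBPβ line it was 16.23 to 16.43 in WT and 16.30 to 16.60 in KO. The part of this list in the differences below was not tested. Markers of other organs also varied. The mean of 8 liver genes was 11.06 to 15.75 in the 13 arrays of the ChREBPβ line and 7.77 to 13.03 in the 12 arrays of the ChREBP total line. In bulk tissue, fewer cells of a type and less RNA per cell cannot be told apart.

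Adcy10 RNA nearly disappeared from ChREBP total KO fat. With the spliced probe, the level in ChREBP total WT ran from 10.59 to 11.51 with a median of 11.22, and the 5 ChREBP total KO arrays read 6.24, 6.33, 6.33, 6.69 and 6.75. Raw intensities were 1630 to 3304.5 in WT and 69.0 to 117.5 in KO, and every KO array stayed well above its background. The groups were far apart and did not overlap. The difference was -4.68 (SE 0.20), a 25.7-fold lower level. By wash batch it came to -4.67, -4.35, -4.43 and -4.99. All the other Adcy10 probes were lower as well, by a size that differed between probes. A_55_P2715623 read a mean of 10.54 (SD 0.38, 7 WT arrays) against 5.92 (SD 0.19, 5 KO arrays), a difference of -4.64 (SE 0.19). A_55_P2715618 read 8.83 (SD 0.31) against 5.65 (SD 0.12), 9.09-fold lower. A_55_P2058995, the upstream probe, read 6.88 (SD 0.33) against 4.99 (SD 0.09), 3.73-fold lower. The KO intensity of that probe was only 28.0 to 37.0 before normalisation, with local background left in, and its spot was found by the scanner software on 16 of the 25 arrays. All 4 probes were lower without overlap between the groups, as were 2.9% of all 39619 probes tested; the contrast that chose Adcy10 gives these values, so nothing is read from the comparison.

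**Figure D1:**
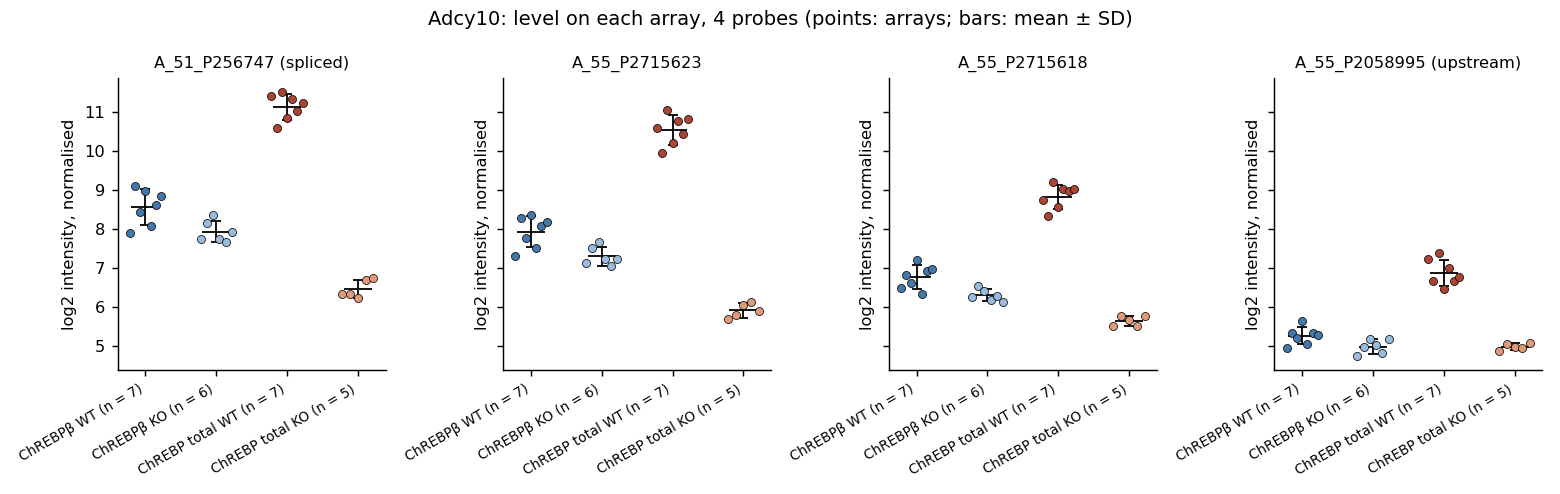
Normalised log2 intensity of the 4 Adcy10 probes on every array (points) with the mean and SD of each group (bars). On each probe the 7 ChREBP total WT arrays sit above all others, and on the spliced probe the 5 ChREBP total KO arrays (6.24 to 6.75) sit below all others.

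The WT mice of the lines did not start from the same Adcy10 level. The spliced probe read 7.91 to 9.09 (median 8.61) in ChREBPβ WT, below every ChREBP total WT array, and the difference between the WT groups was 2.57 (SE 0.18), 5.93-fold. It was 2.60 (SE 0.18) for A_55_P2715623, 2.06 (SE 0.13) for A_55_P2715618 and 1.62 (SE 0.13) for the upstream probe, with no overlap on any of them; 3.45% of all probes were higher there without overlap. This comparison shares the ChREBP total WT arrays with the KO comparison above. Line, origin of the mice and any difference in their handling cannot be told apart between the WT groups, and 22.1% of all probes had an adjusted p under 0.05 between them.

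In the ChREBPβ line Adcy10 was lower in KO than in WT, by less than the adjusted threshold could call. The spliced probe read 7.67 to 8.35 (median 7.84) in ChREBPβ KO against 7.91 to 9.09 in ChREBPβ WT; 3 of the 6 KO arrays lay below the lowest WT array. The groups overlapped. The difference was -0.64 (SE 0.19), a 1.56-fold lower level, with a limma unadjusted p of 0.0031 and an adjusted p of 0.329. An exact two-sided permutation test of the group means over all 1716 splits of these 13 arrays gave p = 0.0163. Within wash batches the difference was -0.66, -0.95, -0.51 and -0.66. It was -0.64 (SE 0.18) for A_55_P2715623 and -0.46 (SE 0.14) for A_55_P2715618, with limma adjusted p of 0.328 and 0.336. For the upstream probe it was -0.28 (SE 0.13). That probe met the filter on 16 of 25 arrays, below the 21 asked for over all arrays. It was therefore kept only by the share of arrays within a group, and its difference is given without a p-value. These 4 probes read 1 gene on the same arrays and are not separate evidence. In this contrast 0.00505% of probes, 2 of 39619, had an adjusted p under 0.05, and 9.21% had an unadjusted p under 0.05.

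On the spliced probe the order of Adcy10 levels was therefore ChREBP total WT, ChREBPβ WT, ChREBPβ KO, ChREBP total KO. Only the neighbours ChREBPβ WT and ChREBPβ KO overlapped there. On the upstream probe both KO groups averaged 4.99, so that probe did not order them. Its ChREBP total KO arrays (4.87 to 5.08) overlapped both ChREBPβ KO (4.74 to 5.19) and ChREBPβ WT (4.97 to 5.64). The KO effect in the ChREBP total line minus that in the ChREBPβ line was -4.04 (SE 0.28) on the spliced probe. The deposited series table, the authors' own processed values, gave differences within 0.0137 of the present ones for every tested member probe and contrast.

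Markers of other organs were set beside these values. Of 11 testis germ cell genes, 7 passed the filter, and their mean level was 5.52 to 10.20 in ChREBPβ WT, 5.52 to 6.49 in ChREBPβ KO, 5.63 to 8.60 in ChREBP total WT and 5.60 to 8.59 in ChREBP total KO. Of the list, Prm1, Prm2, Tnp1 and Tnp2, which package DNA in spermatids, were well above background on 25 of 25 arrays, Akap4 and Pgk2 on 21, Ldhc on 20, Ddx4 on 16, Odf1 on 7, Acrv1 on 3 and Dazl on 0. The part of this list in the Adcy10 differences was not tested. The array with the highest germ cell level, ChREBPβ WT replicate 2, also had the highest Adcy10 level of its group, 9.09, and without it the ChREBPβ difference was -0.52 with a limma adjusted p of 0.479. The liver list had a median of 15.08 in ChREBPβ WT, 13.18 in ChREBPβ KO, 9.89 in ChREBP total WT and 8.30 in ChREBP total KO, so its median was lower in each KO than in its WT and lower in the ChREBP total line. In the same order of groups, the epididymis list (4 of 10 genes tested) had medians of 5.30, 5.24, 6.15 and 5.68 and the brown or beige adipocyte list (6 of 6) had 9.41, 9.45, 9.86 and 9.22, so both were highest in ChREBP total WT, as Adcy10 was. The part of these lists in the Adcy10 differences was not tested.

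None of the membrane cyclases Adcy1 to Adcy9 was called in either KO. Of their 10 tested probes, 0 had a limma adjusted p under 0.05 in the ChREBPβ line and 0 an unadjusted p under 0.05, against 0.00505% and 9.21% of all probes. In the ChREBP total line 0 had an adjusted p under 0.05 and 1 an unadjusted p under 0.05, against 8.95% and 20.4% of all probes. The difference between the KO effects was called for 0 of the 10 as well, with 1 at an unadjusted p under 0.05, against 3.24% and 12.9% of all probes. Between the WT groups 1 probe was called, that of Adcy3, against 22.1% of all probes. These adjusted p-values lay between 0.161 and 0.955 in the ChREBP total line, so the absence of a call does not show that the levels were equal; the intervals below say what was measured.

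**Figure D2:**
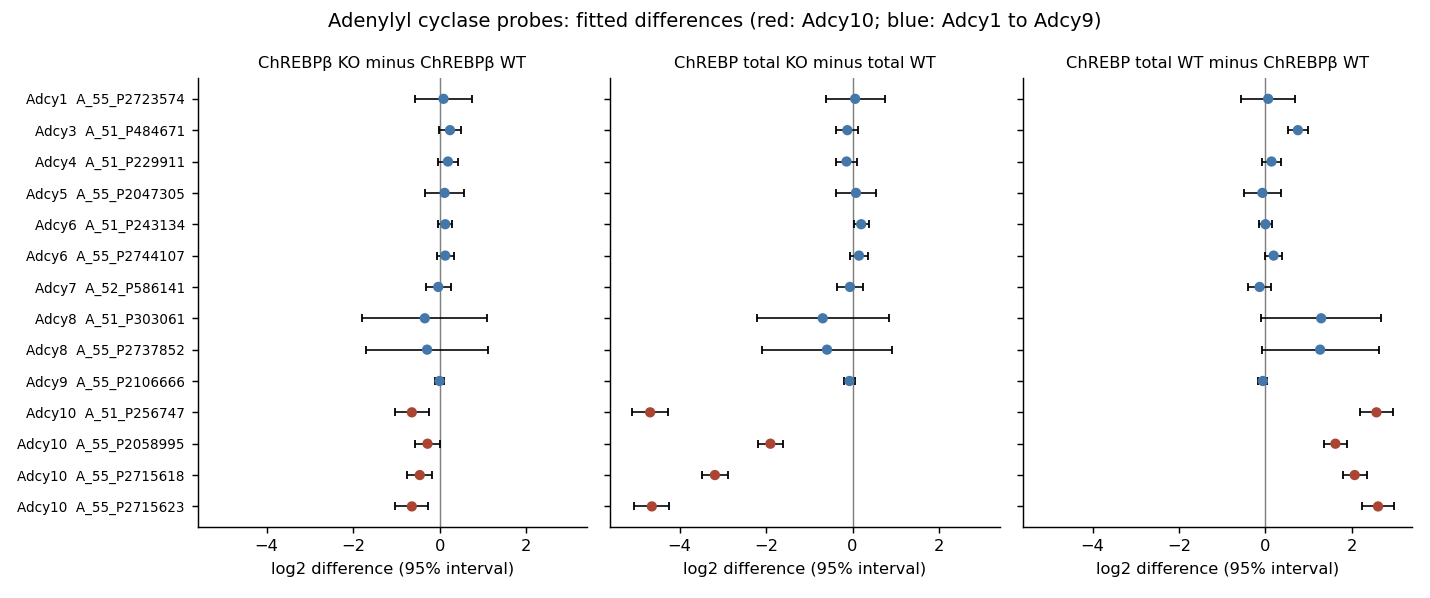
Fitted log2 difference with its 95% interval for each of the 14 tested adenylyl cyclase probes in the 3 comparisons. The 4 Adcy10 probes (red) lie left of 0 in both KO comparisons and right of 0 between the WT groups. Among the others, the interval of Adcy3 lies clear of 0 between the WT groups. That of the brighter Adcy6 probe does so in ChREBP total KO (0.027 to 0.37), where the probe was not called.

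Adcy5 and Adcy6, which are inhibited by calcium and by the inhibitory G protein, were readily measured in fat. Adcy5 (chromosome 16) read 12.25 ± 0.55 (SD, n = 7) in ChREBPβ WT, 12.35 ± 0.48 (SD, n = 6) in ChREBPβ KO, 12.17 ± 0.20 (SD, n = 7) in ChREBP total WT and 12.22 ± 0.11 (SD, n = 5) in ChREBP total KO. Its spread was wider in the ChREBPβ line, and the 95% intervals of the KO differences, -0.33 to 0.56 and -0.39 to 0.55, leave room for a change of either sign. The brighter Adcy6 probe, A_51_P243134 (chromosome 15), averaged 11.57 (SD 0.17) over the 7 ChREBP total WT arrays and 11.78 (SD 0.14) over the 5 ChREBP total KO arrays. That difference of 0.20 (SE 0.08, limma adjusted p 0.161) was the only one among the membrane cyclases with an unadjusted p under 0.05 in this line, and it was 0.31 and 0.35 in 2 wash batches and -0.05 and -0.02 in the others. The dimmer Adcy6 probe, A_55_P2744107, gave 0.15 (SE 0.10).

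Adcy4 and Adcy7, both stimulated by G protein βγ subunits once the enzyme is active, gave KO differences of opposite sign or near 0. Adcy4 (chromosome 14) read 11.16 ± 0.20 (SD, n = 7) in ChREBPβ WT, 11.36 ± 0.24 (SD, n = 6) in ChREBPβ KO, 11.30 ± 0.14 (SD, n = 7) in ChREBP total WT and 11.17 ± 0.18 (SD, n = 5) in ChREBP total KO. The KO effect in the ChREBP total line minus that in the ChREBPβ line was -0.33 (SE 0.16, limma adjusted p 0.411). Adcy7 (chromosome 8), a cyclase of blood and immune cells, differed by -0.03 (95% interval -0.32 to 0.25) in the ChREBPβ line and by -0.06 (95% interval -0.36 to 0.24) in the ChREBP total line. Adcy2, of the same class, was at the limit of the array: A_51_P337523 was well above background on 10 of 25 arrays with raw intensity of 18.5 to 40.5, and A_66_P107351 on 1 of 25 with 16.5 to 39.0.

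Adcy9 (chromosome 16), the membrane cyclase least sensitive to forskolin, was the steadiest of the genes. Its level was 11.54 ± 0.03 (SD, n = 7) in ChREBPβ WT, 11.54 ± 0.07 (SD, n = 6) in ChREBPβ KO, 11.48 ± 0.13 (SD, n = 7) in ChREBP total WT and 11.42 ± 0.05 (SD, n = 5) in ChREBP total KO. The KO differences had 95% intervals of -0.11 to 0.11 and -0.19 to 0.05.

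Adcy3, one of the calcium-responsive cyclases and a gene at which variants are linked to body weight, was higher in ChREBP total WT than in ChREBPβ WT fat. Its probe A_51_P484671 (chromosome 12, 4211535 to 4211594) has the sequence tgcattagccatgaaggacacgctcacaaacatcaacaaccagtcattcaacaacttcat, shown because it is the only membrane cyclase probe that was called. Levels were 5.82 to 6.59 (median 6.09) in ChREBPβ WT and 6.70 to 7.16 (median 6.83) in ChREBP total WT, and these groups did not overlap. Of all probes 3.45% were higher there without overlap. This probe is described at length because it was called, so nothing is read from the separation. The difference was 0.75 (SE 0.11, limma adjusted p 0.000108), with 0.90, 0.82, 0.99 and 0.33 in the 4 wash batches. Within lines, ChREBPβ KO read 6.06 to 6.71 (median 6.31), a difference of 0.24 (SE 0.12, adjusted p 0.554), and the 5 ChREBP total KO arrays read 6.55, 6.61, 6.81, 6.84 and 6.91, a difference of -0.12 (SE 0.12, adjusted p 0.679). The KO effects differed by -0.36 (SE 0.17, adjusted p 0.369). Raw intensities of 58.5 to 165.5 place the probe toward the dim end of the array. The liver list was also lower in the ChREBP total line, as given above, and its part in the Adcy3 difference was not tested.

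Adcy8 and Adcy1, the calcium-calmodulin-stimulated cyclases best known from neurons, varied more between mice than between groups. The Adcy8 probe A_51_P303061 (chromosome 15) was above a level of 7 on 7 arrays and between 4.41 and 6.53 on the other 18. The high arrays were ChREBPβ WT replicate 2 at 8.26, ChREBPβ KO replicate 4 at 7.72, ChREBP total WT replicates 2, 3 and 8 at 8.25, 7.55 and 7.04, and ChREBP total KO replicates 1 and 4 at 7.16 and 7.70. They came from all 4 groups and 3 of the 4 wash batches. A_55_P2737852 read the same arrays high, with Pearson r = 0.992 to the first probe over 25 arrays, and A_55_P2734702, which did not pass the filter, read 6.11 to 7.55 on them. The group difference between the WT groups was 1.29 (SE 0.67, limma adjusted p 0.179), and the KO differences were -0.34 (SE 0.70) and -0.69 (SE 0.73). Without ChREBPβ WT replicate 2 the WT difference became 1.79 with a limma adjusted p of 0.0451. The probe was well above background on 3 of 7 ChREBPβ WT and 1 of 6 ChREBPβ KO arrays and passed the filter through the ChREBP total groups (7 of 7 and 4 of 5), so these differences depend on the background level and nothing is read from their p-values. Adcy1 (chromosome 11) ranged from 4.86 to 6.54 over all arrays, and its KO differences were 0.09 (SE 0.31) and 0.06 (SE 0.33).

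**Figure D3:**
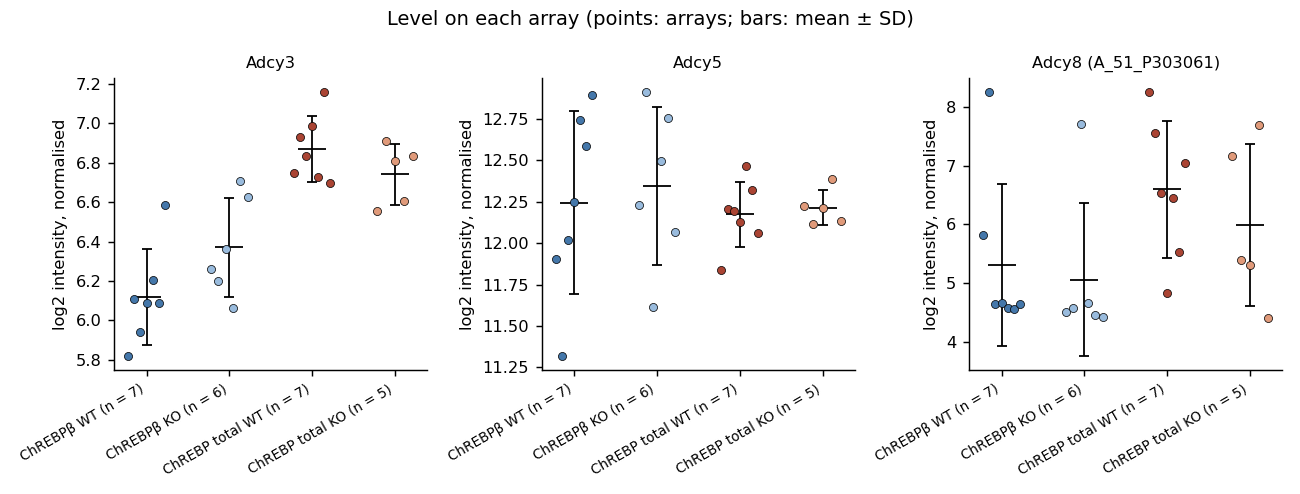
Normalised log2 intensity of Adcy3, Adcy5 and Adcy8 on every array (points) with group mean and SD (bars); each panel has its own scale. Adcy3 separates the WT groups (5.82 to 6.59 against 6.70 to 7.16), Adcy5 spreads more widely in the ChREBPβ line, and Adcy8 is high on single arrays of every group.

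The germ cell and epididymis lists moved with some of the Adcy8-high arrays. On those 7 arrays the germ cell mean was 6.24 to 10.20, against 5.52 to 6.84 on the other 18, and the epididymis mean, over 4 of 10 genes that passed the filter, was 5.51 to 10.83 against 4.98 to 6.16. ChREBP total WT replicate 2 held the highest epididymis level, and ChREBPβ WT replicate 2 the highest germ cell level. Their part in the Adcy8 levels was not tested. Chosen after these values were seen, the 6 genes whose level was most like that of Adcy8 over the 25 arrays were Ccdc187 (Pearson r = 0.979), 3110040M04Rik (0.978), Scube1 (0.978), Rmst (0.977), Tsnaxip1 (0.975) and Rsph1 (0.970), a component of the radial spokes of motile cilia.

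The genes next to Adcy10 were examined because the size of its fall raises the question of what else on the chromosome moved. By the order of genes in the RefSeq table, the nearest genes before Adcy10 are Mpc2, Dcaf6 and the pseudogene Gm24637, and those after it are Mpzl1 and the transfer RNA genes n-TPagg2 and n-TPcgg2. Mpc2, a subunit of the mitochondrial pyruvate carrier, was lower in ChREBP total KO: its brighter probe (167409699 to 167411082) averaged 16.17 (SD 0.14) in WT and 15.57 (SD 0.09) in KO, a difference of -0.60 (SE 0.10, limma adjusted p 0.000233). Dcaf6, a substrate receptor of a ubiquitin ligase, was lower on both probes. A_55_P2787609 (167259641 to 167259699) averaged 10.54 (SD 0.14) in WT and 9.67 (SD 0.10) in KO, a difference of -0.86 (SE 0.08, limma adjusted p 1.4e-07), and its KO effects differed between the lines by -0.86 (SE 0.11).

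On the other side of Adcy10 no probe was called in either KO comparison. Mpzl1, a cell surface glycoprotein gene, averaged 11.81 (SD 0.08) in ChREBP total WT and 11.81 (SD 0.15) in KO, a difference of 0.00258 (SE 0.11, limma adjusted p 0.995). Gm24637 and the transfer RNA genes had no tested probe. Within 500 kb on either side of the spliced Adcy10 probe, 29 other probes of 19 other gene names were tested, and the 4 probes called in the ChREBP total KO comparison were those of Mpc2 and Dcaf6; 8.95% of all probes were called there. The same probes were higher in ChREBP total WT than in ChREBPβ WT, by 0.87 (SE 0.09) and 0.64 (SE 0.12) for Mpc2 and by 0.91 (SE 0.07) and 1.20 (SE 0.10) for Dcaf6, a comparison that shares the ChREBP total WT arrays. In that comparison 7 of the 29 probes, of 4 genes, were called, near the 22.1% of all probes. The others were Tiprl on the Mpc2 side, higher by 0.19 (limma adjusted p 0.0199), and 2 probes of the transcription factor gene Pou2f1 on the far side, higher by 0.21 and 0.25 (limma adjusted p 0.00668 and 0.00636). In the ChREBPβ line 0 of the 29 probes were called, against 0.00505% of all probes, and the Mpc2 and Dcaf6 differences lay between -0.16 (SE 0.11) and 0 with limma adjusted p of 0.665 or above.

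**Figure D4:**
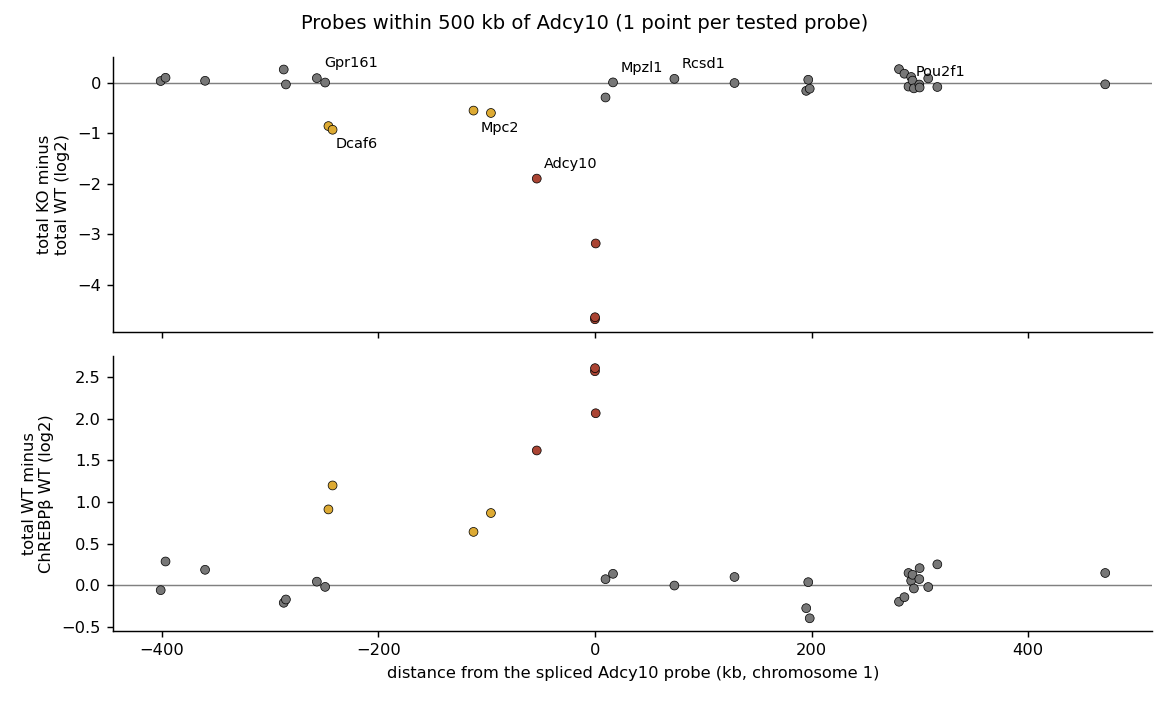
Log2 difference of each tested probe within 500 kb of the spliced Adcy10 probe by its distance along chromosome 1, for ChREBP total KO minus WT (top) and for ChREBP total WT minus ChREBPβ WT (bottom). Adcy10 (red), Mpc2 and Dcaf6 (yellow) lie below 0 at the top and above 0 at the bottom, on one side of the locus. Of the other probes (grey), 0 were called at the top and 3 at the bottom, of Tiprl and, on the far side, Pou2f1.

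The genes whose level followed Adcy10 most closely were named by a fixed rule. Over the 25 arrays these were M17518 (Pearson r = 0.985), ENSMUST00000120343 (0.977), 4930519F09Rik (0.976), ENSMUST00000163003 (0.973), Ddo (0.969) and Slc9a5 (0.968). Such correlations mainly restate the group differences: Ddo, the D-aspartate oxidase gene, differed by -2.03 (SE 0.13) between ChREBP total KO and WT and Slc9a5, a sodium-proton exchanger gene, by -1.36 (SE 0.08). After the group means were removed, the closest genes included Ddo (r = 0.747), M17518 (0.701), Ttc25 (0.674), Naa25 (0.672) and Eno1b (0.670), while the other Adcy10 probes gave 0.913, 0.753 and 0.753. The 25 points share the 4 wash batches and the normalisation, and these values are a description.

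The other genes of the cAMP pathway were taken from 10 lists with 109 genes, of which 104 had a tested probe; the brightest probe stood for each gene. In ChREBP total KO 12 were higher and 3 lower, 14.4% of the 104, against 9.36% of all 25897 genes by the same rule (5.74% higher and 3.62% lower). In the ChREBPβ line 0 of the 104 were called, against 0.00772% of all genes, and 17 had an unadjusted p under 0.05. The share of all genes with such a p by the same rule is not reported here. Over all probes, dim and repeated ones included, it was 9.21%, so these values are not directly comparable. The KO effects differed between the lines for 8 genes, 6 with a positive and 2 with a negative difference, 7.69% against 3.49% of all genes (1.34% positive and 2.15% negative). Between the WT groups 16 were higher and 13 lower in ChREBP total WT, 27.9% against 22.1% of all genes (13.4% higher and 8.69% lower).

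Among receptors that raise cAMP, 17 of 17 were tested and 2 were higher and 1 lower in ChREBP total KO, against 5.74% and 3.62% of all genes. Pth1r, the receptor of parathyroid hormone and its related peptide, fell furthest of the pathway genes: it read 11.90 to 13.48 in ChREBP total WT and 8.90 to 9.69 in ChREBP total KO, and the difference was -3.76 (SE 0.22, limma adjusted p 2.58e-10). In the ChREBPβ line it was -0.70 (SE 0.21, adjusted p 0.334), and the KO effects differed by -3.06 (SE 0.31). Adrb3, the β3-adrenergic receptor of adipocytes, read 14.69 to 15.17 in WT and 16.08 to 16.38 in KO, a difference of 1.23 (SE 0.16, adjusted p 1.67e-05). Tshr, the thyrotropin receptor, was higher by 0.99 (SE 0.14, adjusted p 3.66e-05). ChREBP total KO and its WT did not overlap for Pth1r, and 2.9% of all probes were lower there without overlap. They did not overlap for Adrb3 and Tshr either, which were higher in KO. The share of all probes that were higher there without overlap is not reported here. These genes were named because they were called in this comparison, so nothing is read from the separation. The median difference over the 17 genes was 0.02.

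Receptors that lower cAMP and the G protein subunits gave 1 call in the KO comparisons. Of 9 tested inhibitory receptors only Adora1, the A1 adenosine receptor, was called in ChREBP total KO, higher by 0.62 (SE 0.15, adjusted p 0.0105); its dimmer probe differed by 0.40 with an adjusted p of 0.0576. None of the 7 G protein alpha subunit genes was called in either KO, where 1 had an unadjusted p under 0.05 in the ChREBP total line and 2 in the ChREBPβ line. Between the WT groups Gnai2, an inhibitory subunit, was lower in ChREBP total WT by a difference of -0.37 (SE 0.09, adjusted p 0.0065).

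Among phosphodiesterases and protein kinase A genes, the few that were called in ChREBP total KO were all higher. Of all genes 5.74% were called higher there and 3.62% lower, and nothing is read from the shared direction. Of 16 phosphodiesterases 2 were higher: Pde3b, the insulin-regulated enzyme that breaks down cAMP in adipocytes, by 0.56 (SE 0.09, adjusted p 0.000375) with similar values on its 3 probes, and Pde1a by 0.51 (SE 0.14, adjusted p 0.0261). Of 9 protein kinase A subunits and inhibitors 2 were higher: Prkar2b, the regulatory subunit of fat, by 0.56 (SE 0.12, adjusted p 0.00338), and Prkaca, a catalytic subunit, by 0.43 (SE 0.07, adjusted p 0.000318), though its dimmer probe missed the threshold at 0.0641. Among 3 tested other cAMP effectors, 6 CREB family genes and 6 guanylyl cyclases, 0 were called in either KO; in the ChREBP total line 0, 1 and 1 of them had an unadjusted p under 0.05. Their median differences in ChREBP total KO were -0.14, 0.05 and 0.03.

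Of 11 genes known to be induced through cAMP, 2 were higher in ChREBP total KO, against 5.74% of all genes. Pck1, phosphoenolpyruvate carboxykinase, which feeds glyceroneogenesis in fat and is repressed by insulin, read 12.80 to 13.73 in WT and 15.32 to 15.69 in KO, a difference of 2.44 (SE 0.32, adjusted p 2.08e-05). Dio2, which activates thyroid hormone, read 7.52 to 8.38 and 10.17 to 11.62, a difference of 2.62 (SE 0.39, adjusted p 8.28e-05). Others of the list did not follow: Nr4a1, an immediate-early target of cAMP, differed by -0.41 (SE 0.41, adjusted p 0.666). The median of the 11 was -0.16, and 5 of the 11 differences were positive. Between the WT groups, 5 of the 11 were called higher in ChREBP total WT and 1 lower, against 13.4% and 8.69% of all genes. Among the higher were Fos by 2.52 (SE 0.60, adjusted p 0.00444) and Nr4a1 by 1.62 (SE 0.37, adjusted p 0.00353). Pck1 was lower by a difference of -1.45 (SE 0.29, adjusted p 0.00133).

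**Figure D5:**
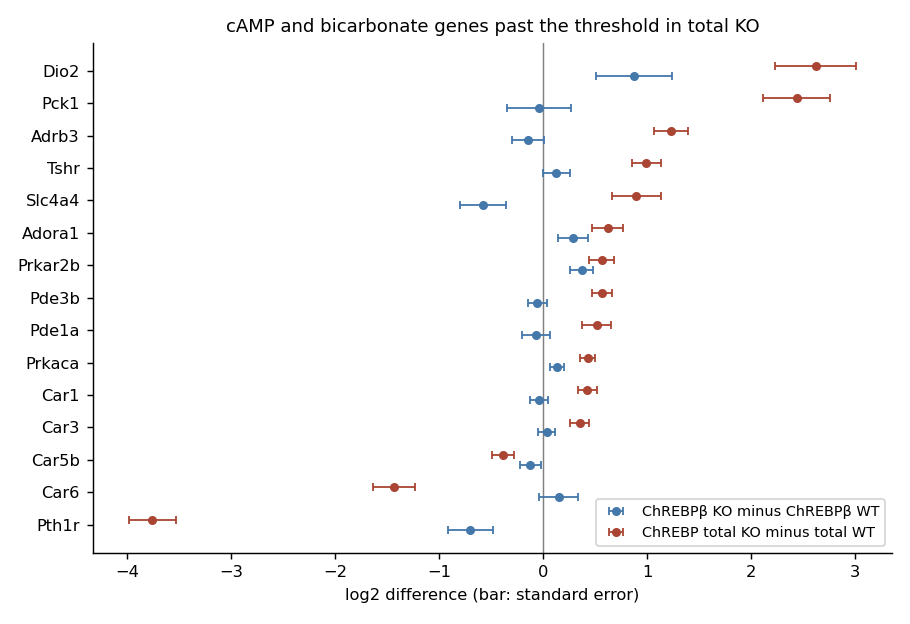
Log2 difference with its standard error for the 15 cAMP and bicarbonate genes with an adjusted p under 0.05 in ChREBP total KO (red), beside the same genes in the ChREBPβ line (blue), where 0 of them were called. Pth1r has the lowest value (-3.76) and Dio2 the highest (2.62).

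Bicarbonate is the activator of the Adcy10 product, and carbonic anhydrases and bicarbonate transporters supply it. Of 20 tested genes 3 were higher and 2 lower in ChREBP total KO, against 5.74% and 3.62% of all genes. Car6, a secreted carbonic anhydrase counted among the lower genes, read 5.35 to 6.85 in WT. In KO it was well above background on 0 of 5 arrays, and the level was at least 2.47-fold lower. It passed the filter through other groups, so nothing is read from its p-value. Slc4a4, a sodium bicarbonate cotransporter, was higher by 0.89 (SE 0.24, limma adjusted p 0.0184), with a difference between the lines of 1.48 (SE 0.32, adjusted p 0.00983). The dimmest of its 3 probes was not called. Car1 was higher by 0.42 (SE 0.09, adjusted p 0.0034). Car3, the abundant carbonic anhydrase of adipocytes, disagreed in size between probes: its brightest probe, at 18.10 over all arrays, gave 0.35 (SE 0.09, adjusted p 0.0148), and the dimmer probes gave 1.56 (SE 0.20) and 1.65 (SE 0.18). Between the WT groups 3 were higher and 4 lower in ChREBP total WT, against 13.4% and 8.69% of all genes. Car5a, a mitochondrial carbonic anhydrase of liver, was well above background on 2 of 7 ChREBP total WT arrays and on 7 of 7 ChREBPβ WT arrays, with levels of 4.13 to 6.04 and 6.27 to 10.17. The liver list differed in the same direction, and its part was not tested.

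Promoter windows from RefSeq (build GRCm38.p6, 300 bases around the start) were at hand for 8 of the 10 members, 11 windows in all. CACGTG, the exact E-box letters, was searched on both strands and occurred in 7.15% of all 32851 windows. Among the members it was in 1 window, that of Adcy1, and not in that of Adcy10. A search for these exact letters in short windows cannot show whether a ChREBP response element is present or absent. TGACGTCA, the cAMP response element, was in 1.79% of all windows and in 0 of the 11.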

How the data were processed

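Total RNA of 25 mice was hybridised to single-colour Agilent SurePrint mouse arrays. Per the file headers, spot intensity was extracted with Feature Extraction 10.10.1.1, with annotation of build mm9; the deposited files hold the median spot intensity, quality flags and, in the series table, the authors' normalised log2 intensity. Following the study's methods, spots found, positive and well above background on at least 21 of 25 arrays, or on 75% of the arrays of a group, were kept (42315 spots). Outlier spots were set to missing (24 values among the tested probes). Intensities were log2-transformed and quantile normalised without background subtraction, and replicated probes were reduced to their median (39619 probes, 25897 genes). Groups came from the sample titles. limma 3.58.1 in R 4.3.3 fitted the 4 groups with wash batch; each of the 4 batches held all groups. p-values were adjusted by Benjamini-Hochberg over all probes and called under 0.05. Each array is a mouse.

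The members and all gene lists were chosen with earlier results of these data known. Named genes were all members, up to 3 called genes per list with the largest difference, Pck1, Dio2 and Car3, 3 neighbours on each side of Adcy10, and the 6 genes most like it by each measure, with some results not reported here. The alternatives were other filters, background corrections, scalings, batch, slide and replicate blocks, array weights, probe summaries and leaving out each array. Precision is limited by the number of arrays.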

Additional observations from a re-analysis of the deposited data

Results flagged for a closer look

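The highest or lowest array of each group was checked against its neighbours for the 14 tested member probes, 56 groups in all, of which chance flags about 1 in 20; 5 stood apart. Adcy7 was 11.34 on ChREBPβ WT replicate 6, where the next array read 10.67. That array also had the highest lymphocyte list level of all 25, 8.89 against 8.17 on the next, and the highest macrophage list level, 13.28 against 12.97; their part was not tested. Adcy8 was 8.26 on ChREBPβ WT replicate 2 with A_51_P303061, against 5.81 on the next array. ChREBPβ KO replicate 4 stood apart with both Adcy8 probes, at 7.72 with A_51_P303061 and 7.61 with A_55_P2737852, where the next array read 4.65. Adcy9 was 11.20 on ChREBP total WT replicate 2, the lowest of its group, against 11.48 on the next array; that array also had the highest epididymis list level, 10.83. No Adcy10 probe had an array that stood apart in any group.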

How the results depend on the processing

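Each member's difference was recomputed under 14 other settings and with each of the 25 arrays left out, and 1457 of 1534 values kept their direction and their side of the threshold. In both KO comparisons and in the difference of the KO effects, 0 membrane cyclases were called under any of them. In the WT comparison 0 were called when a spot had to be found, positive and well above background on every array; the Adcy3 spot met this on 24 of 25 arrays, as it was not found on 1, and so was not tested. The count was 1 to 2 with an array left out, and 2 without ChREBPβ WT replicate 2, when Adcy8, near background in most of that group, was called.

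The Adcy10 difference in the ChREBPβ line stayed negative, from -0.73 to -0.51 over the other settings and from -0.74 to -0.52 with an array left out, with limma adjusted p of 0.0945 or above. In ChREBP total KO it was -5.13 with 75th percentile scaling, -4.22 with normexp background correction and -3.60 as a mean over the 4 probes, which also gave -3.10 for the difference of the KO effects.

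Differences near 0 changed sign, and the cause was not tested. With the replicate block, the values were 0.016 for Adcy9 in the ChREBPβ line, -0.24 for Adcy1 and 0.021 for Adcy7 in the ChREBP total line, 0.14 for Adcy5 and 0.17 for Adcy7 in the difference of the KO effects, and 0.0151 for Adcy6 between the WT groups; Adcy10 in the ChREBPβ line was -0.67 (adjusted p 0.238). Replicate numbers do not pair the mice: deviations of 29 same-numbered pairs correlated from -0.434 to 0.539, and 2 arrays correlated best with their own number. With array weights the values were 0.038 for Adcy7 in the ChREBPβ line, -0.026 for Adcy5 in the ChREBP total line and 0.0599 for Adcy6 between the WT groups. Adcy9 in the ChREBPβ line was 0.0087 with normexp and 0.0079 with 75th percentile scaling. Adcy6 between the WT groups was 0.033 with that scaling, 0.0015 and 0.0065 with slide as a random block with and without wash batch, and 0.094 as a mean over probes.

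With an array left out, the ChREBPβ differences ranged from -0.055 to 0.28 for Adcy1, -0.082 to 0.25 for Adcy5, -0.13 to 0.083 for Adcy7, -0.93 to 0.18 for Adcy8 and -0.027 to 0.021 for Adcy9. Adcy1 ranged from -0.17 to 0.32 in the ChREBP total line. Differences of the KO effects ranged from -0.26 to 0.24 for Adcy1, -0.18 to 0.15 for Adcy5, -0.15 to 0.058 for Adcy7 and -0.82 to 0.29 for Adcy8. For the WT comparison the ranges were -0.093 to 0.24 for Adcy1, -0.26 to 0.0305 for Adcy5 and -0.0396 to 0.0465 for Adcy6. Dim signal limits Adcy1, Adcy2, Adcy8 and the upstream Adcy10 probe.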
